A study of Arabidopsis thaliana with 26 samples.

Results

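Memory-line seedlings of Arabidopsis thaliana grown on 5-azacytidine were compared with wild-type seedlings grown without it. The question was how far the drug brings the memory line back to wild type, and where it takes it away from it. The comparison used every biological replicate of each group: 2 of the memory line on 100 µM 5-azacytidine and 3 of wild type on 0 µM. These are 5 of the 10 biological replicates in the series, built from 11 of its 26 technical libraries. A technical library is a further sequencing library from the same RNA, and the libraries of 1 replicate were summed. All plants were in the Columbia-0 background, were grown on agar medium and were collected at 10 days as whole plants with roots. The memory line is labelled as an msh1 memory line. The 2 other groups, the memory line on 0 µM (2 replicates) and wild type on 100 µM (3 replicates), entered the same fit and are quoted beside the results. The labels do not say that replicates were grown separately, so each p-value reflects the spread among these particular samples and nothing wider.

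MSH1 is a nuclear gene whose protein acts on the genomes of mitochondria and plastids. Memory lines descend from plants in which MSH1 was suppressed, and they keep an altered growth habit after MSH1 function is restored. 5-azacytidine is a cytidine analogue that enters nucleic acids and traps DNA methyltransferases, so newly made DNA loses methylation. Genes and transposons that plants keep silent by methylation can become active on it, and the trapped enzyme on DNA is also a form of DNA damage.

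The replicates compared held 12548668, 12828449 and 13116891 counts in genes for wild type and 12522071 and 12518386 for the treated memory line. Of 33977 gene identifiers, 22031 had enough counts to be tested. Reads aligned to several places amounted to between 6.487% and 10.5% in wild type and to 10.84% and 13.62% in the treated memory line. In the untreated memory line they reached 25.7% in replicate 2, which also stood apart in seed and embryo markers. The summed level of those markers was 39.52 CPM (counts scaled to a total of 1e6 counts in genes; for single genes that total is first scaled by TMM) there, against 1.867 CPM in replicate 1 and at most 1.358 CPM in the 5 replicates compared. MSH1 itself, with 9.47, 8.66 and 14.0 CPM in wild type and 13.2 and 14.7 CPM in the treated memory line, did not pass the test (log2 fold change 0.37, 95% interval −0.16 to 0.91, adjusted p = 0.389).

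The treated memory line differed from untreated wild type at 1271 genes, or 5.77% of those tested, by edgeR's quasi-likelihood test with a Benjamini-Hochberg adjusted p under 0.05. Of these, 710 genes (3.22%) were higher and 561 genes (2.55%) were lower. Differences of 2-fold or more made up 281 of the higher genes (1.28%) and 303 of the lower ones (1.38%). The replicates of both groups did not overlap at 4594 genes on the higher side (20.9%) and 4248 genes on the lower side (19.3%), with or without a call. The count of calls depended on single replicates. It was 270 without replicate 2 of the treated memory line and 600 without its replicate 1. It was 573, 494 and 2561 without wild-type replicates 1, 2 and 3. Within the same fit, the untreated memory line differed from untreated wild type at 258 genes (1.17%) and from the treated memory line at 163 genes (0.74%). Treated and untreated wild type differed at 1408 genes (6.39%). The treated memory line differed from treated wild type at 10 genes (0.0454%), 5 of them higher (0.0227%) and 5 lower (0.0227%). These comparisons share replicates and are set side by side for that reason only. Their counts moved as much with single replicates: the 258 calls became 32 without wild-type replicate 1 and 891 without wild-type replicate 3, and the 163 became 91 without replicate 1 of the treated memory line.

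**Figure D1:**
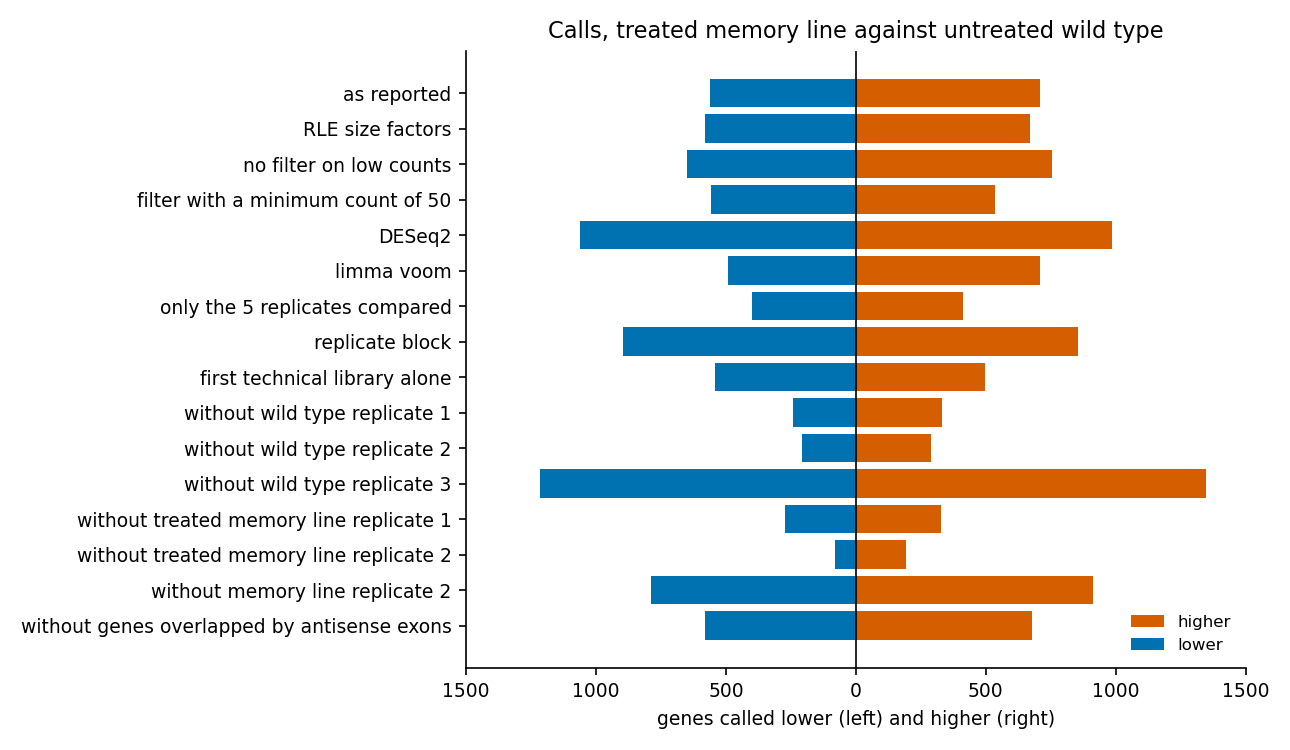
Numbers of genes called lower (bars to the left) and higher (bars to the right) in the treated memory line against untreated wild type, as reported and under each alternative. The bars as reported hold 561 and 710 genes, and they are shortest without replicate 2 of the treated memory line, at 79 and 191 genes.

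Over all genes tested, the treated memory line lay no nearer to untreated wild type than the untreated memory line did. The root mean square difference in log2 CPM between a treated memory-line replicate and a wild-type replicate was 0.608 to 0.793 over the 6 pairs, with a median of 0.725. For the untreated memory line against wild type it was 0.489 to 0.742 with a median of 0.635, and among the wild-type replicates it was 0.48 to 0.546. Between the treated memory line and treated wild type it was 0.462 to 0.605 with a median of 0.526, the lowest median of the pairs of groups across genotypes, beside the 0.467 between both treated memory-line replicates. Wild-type replicate 3 was the nearest of the wild-type replicates to both treated memory-line replicates, at 0.608 to 0.633. The first principal component, with 35.4% of the variance, placed the treated memory line at 31.6 and 32.1, beside treated wild type at 35.9 to 42.4 and away from untreated wild type at −50.2 to −26.9. The second, with 21.0%, placed every memory-line replicate, treated or not, above every wild-type replicate. The treated memory line stood there at 10.4 and 30.4, and the untreated wild-type replicates at −41.6 to −4.57.

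**Figure D2:**
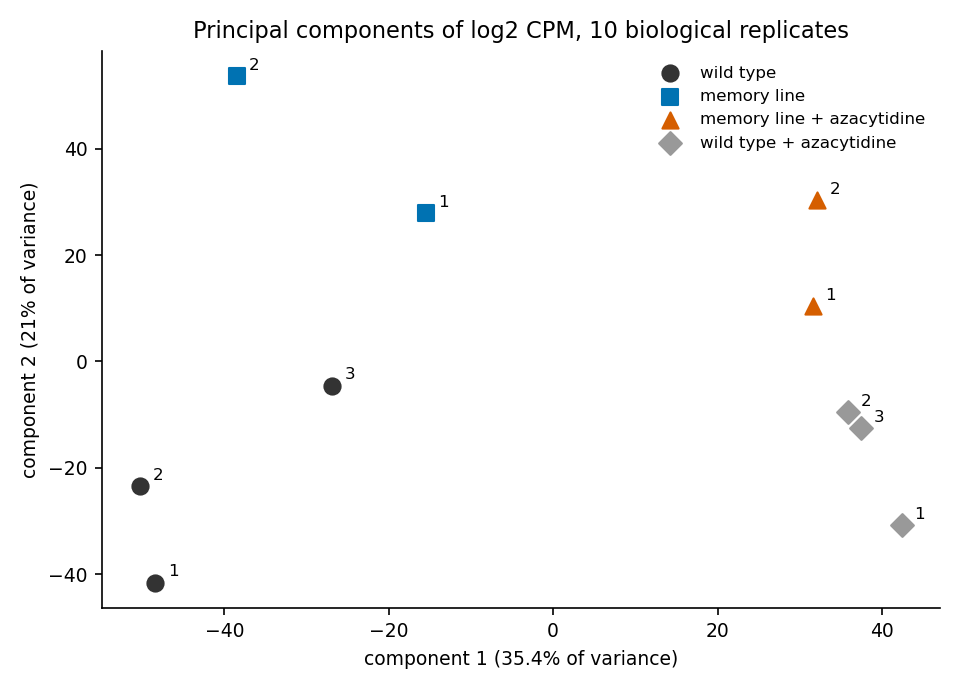
First and second principal components of log2 CPM over the 22031 genes tested, 1 point per biological replicate, marked by group. The treated groups lie on the right and the untreated on the left, and all 4 memory-line replicates lie above the wild-type replicates on the vertical axis.

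Genes kept silent by methylation gave some of the largest differences. SDC encodes an F-box protein and is silenced by DNA methylation over repeats upstream of the gene. It stood at 0.249, 0.236 and 0.661 CPM in wild type and at 7.56 and 8.46 CPM in the treated memory line. Both treated replicates were far above all wild-type ones, and SDC rose by 4.33 on the log2 scale (95% interval 3.51 to 5.14, adjusted p = 3.99e-05). Exons of the opposite strand cover 80.2% of SDC's exon bases, and the library kit does not mark strand, so reads of its antisense partner cannot be told apart. QQS, a species-specific gene linked to starch content and known for naturally methylated variants, had 2.24, 2.83 and 0.882 CPM in wild type and 31.9 and 31.3 CPM in the treated memory line. Its groups did not overlap either, and it rose 16.0-fold (log2 4.0, adjusted p = 0.00212). MRU1 rose from 1.41, 1.65 and 1.62 CPM to 23.2 and 10.6 CPM, a 10.7-fold rise (adjusted p = 0.00118) that was larger in replicate 1.

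The untreated memory line did not show these levels. It had SDC at 0.717 and 0.282 CPM, QQS at 1.51 and 5.45 CPM and MRU1 at 1.86 and 0.469 CPM, and none of the 3 passed the test against wild type (adjusted p = 0.777, 0.58 and 0.825). Treated wild type had SDC at 8.14 to 8.94 CPM, QQS at 23.6 to 36.1 CPM and MRU1 at 17.1 to 25.8 CPM. FWA, an imprinted homeobox gene silent in vegetative tissue, had no counts in any wild-type replicate and 2.12 and 2.92 CPM in the treated memory line. With 3 counts over the 3 wild-type replicates as the floor, it was at least 32.3-fold higher, and it missed the threshold (adjusted p = 0.051). The list of silenced or imprinted loci held 8 tested genes, of which SDC, QQS and MRU1 rose, against 3.22% of all genes tested, and none fell. Its median log2 difference was 1.89, beside about 0 over all genes tested. Without genes covered by antisense exons, SDC among them, the median was 0.36.

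The 250 bases before the annotated start of SDC and QQS are shown because they hold the repeats and the CG sites through which these genes are known to be methylated. They were read from the RefSeq TAIR10.1 reference, on the plus strand, at chr2:7681912-7682161 for SDC and chr3:12348797-12349046 for QQS. In SDC the capitals mark a 21-base word that occurs 4 times. A word of that length occurred 4 or more times in 4 of the 22020 windows of this size, or 0.0182%. In QQS the capitals mark the 10 CG sites, a number reached in 2995 windows or 13.6%, where the median over all windows was 5 CG sites.
SDC: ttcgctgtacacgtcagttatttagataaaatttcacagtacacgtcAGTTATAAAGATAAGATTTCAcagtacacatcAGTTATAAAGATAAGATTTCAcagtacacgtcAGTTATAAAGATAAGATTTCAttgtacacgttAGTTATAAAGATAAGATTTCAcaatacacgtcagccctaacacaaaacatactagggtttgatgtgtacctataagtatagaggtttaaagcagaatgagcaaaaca
QQS: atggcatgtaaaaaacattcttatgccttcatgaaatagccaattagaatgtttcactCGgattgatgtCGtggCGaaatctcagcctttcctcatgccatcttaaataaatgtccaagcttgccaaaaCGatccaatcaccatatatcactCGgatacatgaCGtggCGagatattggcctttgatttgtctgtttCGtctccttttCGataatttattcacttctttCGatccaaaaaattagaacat

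**Figure D3:**
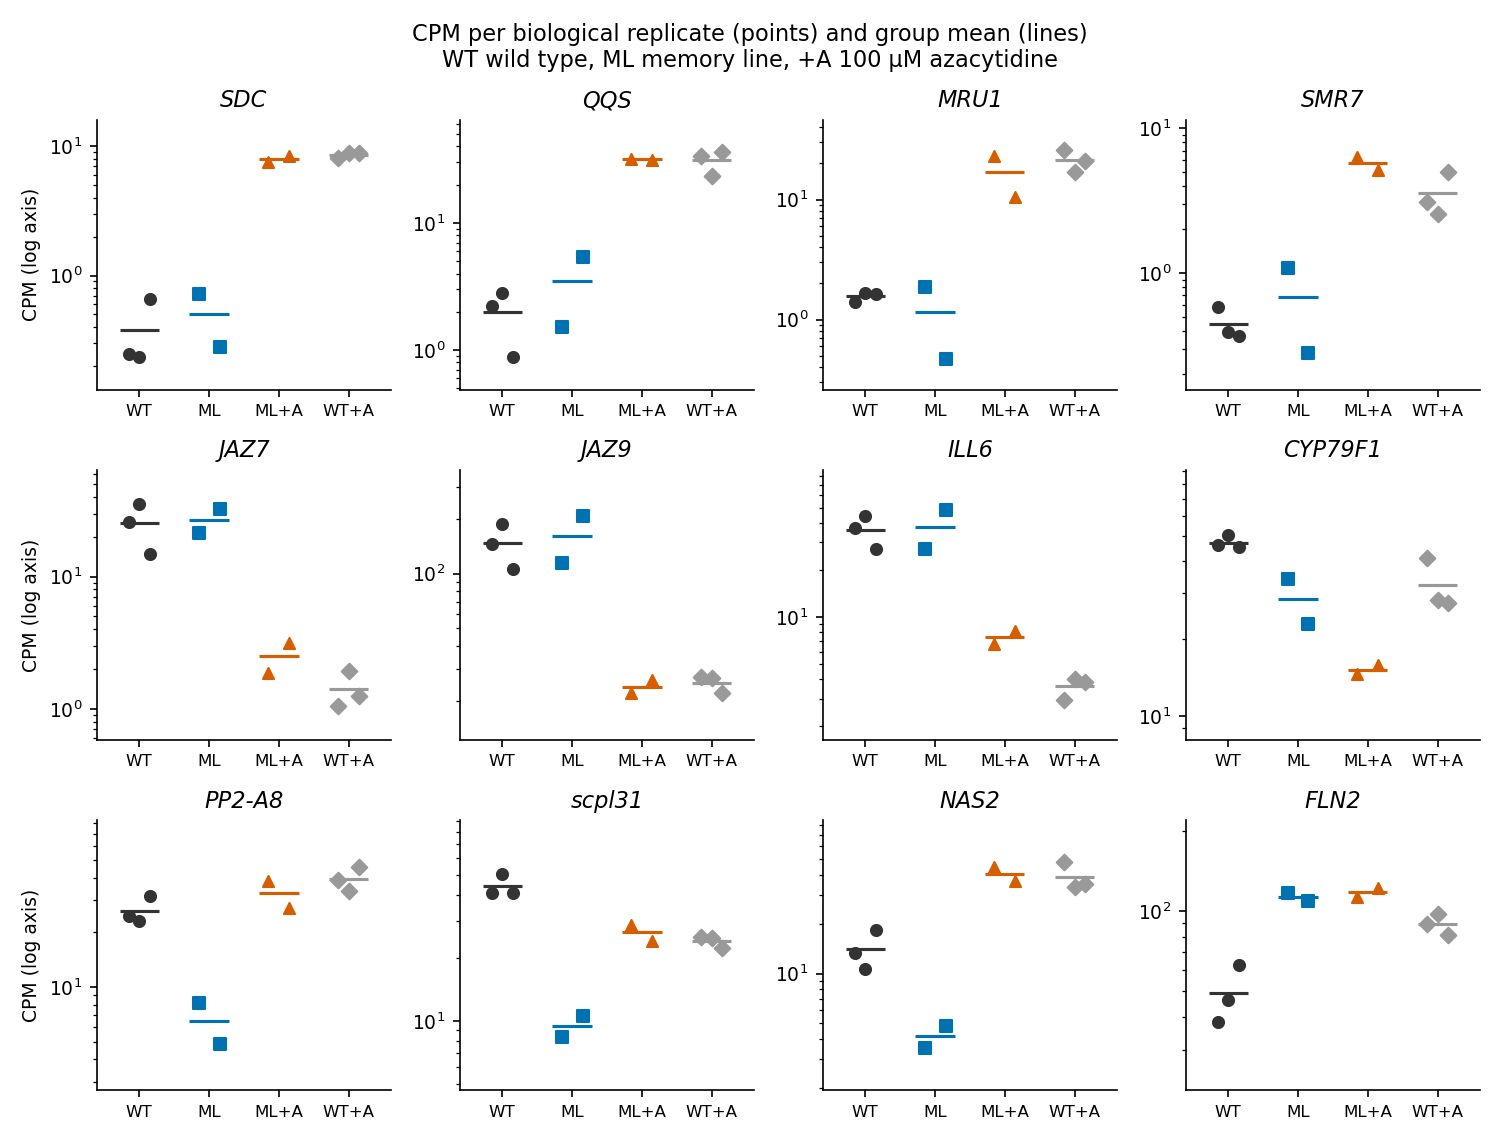
CPM of 12 genes (log axis), 1 panel per gene, with a point for each biological replicate and a line at the group mean, for wild type (WT), memory line (ML), treated memory line (ML+A) and treated wild type (WT+A). SDC, QQS, MRU1 and SMR7 are high and JAZ7, JAZ9 and ILL6 low in both treated groups. PP2-A8 is low in the untreated memory line only, and NAS2 is lowest there and high in both treated groups. FLN2 is high in the memory line with and without the drug.

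Genes of DNA methylation were called about as often as genes in general, 2 of 35 tested or 5.71%, beside 5.77% of all genes tested. MET1, which maintains CG methylation, had 42.1 to 51.5 CPM in wild type and 49.0 and 64.5 CPM in the treated memory line, and the groups overlapped (log2 0.29, adjusted p = 0.253). CMT3, the main CHG methyltransferase, and DDM1, a chromatin remodeller, had log2 differences of 0.25 and 0.27 (adjusted p = 0.478 and 0.497). ROS1 removes methylated cytosines, and its RNA is known to fall when methylation is lost. It had 64.7, 74.9 and 63.9 CPM in wild type and fell to 35.9 and 39.9 CPM (log2 −0.84, adjusted p = 0.0113), below every wild-type replicate. The call ended without either treated memory-line replicate, with an adjusted p of at most 0.0851. Of 35 tested genes of the methylation and silencing machinery, ROS1 was the only one that fell. DMS3 was the only one that rose (log2 0.70, adjusted p = 0.0342), and antisense exons cover 54.6% of its exon bases. Its call ended without either treated memory-line replicate or wild-type replicate 1 or 2 (adjusted p up to 0.163).

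Part of the DNA damage genes rose. SMR7, an inhibitor of cyclin-dependent kinases, had 0.581, 0.394 and 0.367 CPM in wild type and 6.37 and 5.18 CPM in the treated memory line. The groups were well apart, and the rise was 12.7-fold (log2 3.67, adjusted p = 0.00094). PARP2, a poly(ADP-ribose) polymerase of DNA repair, had 5.9, 5.43 and 7.5 CPM in wild type and 29.1 and 38.9 CPM in the treated memory line, a 5.4-fold rise (log2 2.43, adjusted p = 0.00118). GMI1, a chromosome-structure protein induced by ionizing radiation, had 4.98, 6.61 and 5.37 CPM in wild type and 33.3 and 50.2 CPM on the drug in the memory line (log2 2.88, adjusted p = 0.00917). Its call ended without replicate 2 of the treated memory line (adjusted p = 0.0661). NAC103, a transcription factor of the unfolded protein and DNA damage responses, rose 8.7-fold from 1.99, 1.89 and 3.09 CPM to 18.5 and 22.2 CPM (adjusted p = 0.00108). NAC044, a relative of the damage regulator SOG1, rose by 2.33 on the log2 scale (adjusted p = 0.00479, and 0.0617 without replicate 2 of the treated memory line).

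In the untreated memory line the replicates disagreed on these genes. PARP2 stood at 22.5 CPM in replicate 1 and 9.95 CPM in replicate 2, GMI1 at 32.1 and 8.92 CPM and NAC103 at 9.82 and 3.29 CPM. None of the 3 passed the test there against wild type (adjusted p = 0.0555, 0.0923 and 0.0911). Of the 32 tested genes of the DNA damage list, 9 rose in the treated memory line and none fell, against 3.22% of all genes tested that rose. The others that rose were RAD17 (checkpoint clamp loading, log2 0.87), TK1A (thymidine kinase, 0.79), RNR1 (large subunit of ribonucleotide reductase, 0.72), XRI1 (0.91), GR1 (1.1) and the mitotic cyclin CYCB1;1 (0.98). GR1 lost its call in 10 of 15 alternatives, among them RLE size factors and each of the 5 fits that left out 1 of the replicates compared (adjusted p up to 0.181). The list's median was 0.63. The number that rose was 2 without replicate 2 of the treated memory line, 5 without its replicate 1, 3 without wild-type replicate 1 and 4 without wild-type replicate 2. BRCA1 had a log2 difference of 0.95 and did not pass (adjusted p = 0.0932). Of the 16 tested replication genes none was called by edgeR, DESeq2 or limma voom, with 3 higher at an unadjusted p under 0.05. Of 19 tested mitosis genes, CYCB1;1 alone was called. Treated wild type had 6 of the 32 DNA damage genes called higher against untreated wild type and none lower, with a median of 0.54. There 3.02% and 3.37% of all genes tested were called. On the drug within the memory line 1 of the 32 was called higher, beside 0.477% of all genes tested. Between both treated groups none of the 32 was called, with a median of 0.08.

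The windows of SMR7 and PARP2 are shown because genes of this response are controlled by SOG1, which binds the palindrome CTTNNNNNNNAAG. They are the 250 bases before the annotated start in TAIR10.1, at chr3:10231568-10231817 on the minus strand for SMR7 and chr4:1049516-1049765 on the plus strand for PARP2. Capitals mark the match, which begins 43 bases before the start in SMR7 and 96 bases before it in PARP2. It reads the same on both strands. Of the 32 windows of the DNA damage list, 7 held it (21.9%), and of all 22020 windows 1987 did (9.02%).
SMR7: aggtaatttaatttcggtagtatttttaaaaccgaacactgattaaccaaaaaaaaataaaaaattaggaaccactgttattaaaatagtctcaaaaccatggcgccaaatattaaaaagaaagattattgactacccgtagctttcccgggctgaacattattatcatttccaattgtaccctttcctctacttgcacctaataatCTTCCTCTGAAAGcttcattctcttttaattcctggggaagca
PARP2: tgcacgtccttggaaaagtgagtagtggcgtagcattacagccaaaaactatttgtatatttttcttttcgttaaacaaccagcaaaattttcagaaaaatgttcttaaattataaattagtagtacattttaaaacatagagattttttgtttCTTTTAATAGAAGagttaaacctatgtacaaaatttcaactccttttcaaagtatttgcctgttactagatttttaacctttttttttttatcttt

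Jasmonate genes fell at several steps of the pathway. Jasmonates are wound and defence hormones. The JAZ proteins repress the response, and their genes are themselves switched on by the hormone through MYC transcription factors. JAZ9 had 146, 187 and 106 CPM in wild type and 22 and 25.9 CPM in the treated memory line. No wild-type replicate came near the treated level, and the fall was 6.1-fold (log2 −2.61, adjusted p = 0.00108). JAZ7 had 25.9, 35.6 and 14.9 CPM in wild type and 1.87 and 3.13 CPM in the treated memory line (log2 −3.33, adjusted p = 0.00193). JAZ10 fell from 21.7, 27.9 and 16.6 CPM to 3.06 and 3.57 CPM (log2 −2.73, adjusted p = 0.000591). JAZ8 was the lowest expressed of these, at 2.82, 5.04 and 1.62 CPM against 0.255 and 0.0729 CPM (log2 −4.24, adjusted p = 0.01). Its call ended without replicate 2 of the treated memory line, with an adjusted p of 0.118.

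Of the 12 tested JAZ genes, 9 fell, against 2.55% of all genes tested, and their median was −1.62. JAZ2, JAZ3, JAZ5, JAZ6 and JAZ12 fell by 1.54, 0.97, 2.13, 1.71 and 0.59 on the log2 scale. JAZ1 (−1.49, adjusted p = 0.0852), JAZ4 (−0.45) and JAZ11 (−0.10) did not pass. Between 7 and 9 JAZ genes fell when any 1 of the 5 replicates was left out.

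The untreated memory line kept JAZ7 and JAZ9 at wild-type levels. It had JAZ9 at 115 and 206 CPM and JAZ7 at 21.4 and 32.6 CPM, and against wild type the log2 differences were 0.14 and 0.08 (adjusted p = 0.862 and 0.944). The drug lowered them within the memory line by 2.74 and 3.41 on the log2 scale (adjusted p = 0.00205 and 0.00455), where 5 of the 12 JAZ genes and 0.263% of all genes tested were called lower. For JAZ7 the adjusted p was 0.0674 without replicate 1 of the treated memory line. In treated wild type, where 3.02% of all genes tested were called higher and 3.37% lower against untreated wild type, JAZ9 stood at 22 to 27.1 CPM and JAZ7 at 1.05 to 1.94 CPM. There 9 of the 12 JAZ genes were called lower, in a comparison that shares the untreated wild-type replicates.

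Enzymes on either side of the hormone were lower too. Of 13 tested synthesis genes 4 fell, against 2.55% of all genes tested, with a median of −0.66. They were the lipoxygenase LOX3 (−1.55), the cyclase AOC1 (−1.54), the reductase OPR3 (−1.59) and the ligase OPCL1 (−1.72). AOC1 has near-identical copies, so its value is uncertain. OPR3 had 145, 186 and 112 CPM in wild type and 52.2 and 46.3 CPM in the treated memory line. None of the 4 was called without replicate 2 of the treated memory line, and 2 synthesis genes fell without wild-type replicate 1 or 2. Of 6 tested breakdown genes 4 fell, against the same 2.55%: the amidohydrolases ILL6 and IAR3, the oxidase CYP94C1 and the sulfotransferase ST2A. ILL6 fell 4.84-fold, from 37.0, 44.2 and 27.3 CPM to 6.71 and 8.16 CPM, with no overlap (adjusted p = 0.00116). Between 3 and 4 breakdown genes fell when any 1 of the 5 replicates was left out.

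Of 14 tested output genes, 4 fell, none rose and 10 did not pass, with a median of −0.91, against 2.55% of all genes tested that fell. The vegetative storage protein gene VSP2 had 84.9, 67.4 and 78.5 CPM in wild type and 19.0 and 25.3 CPM in the treated memory line (log2 −1.79, adjusted p = 0.00797), a call lost without either treated memory-line replicate (adjusted p up to 0.0697). The methyltransferase gene FAMT fell by 3.91 and the transcription factor gene ORA59 by 2.31 on the log2 scale, and both lost their calls without replicate 2 of the treated memory line (adjusted p = 0.0661 and 0.0641). MYC2, the main transcription factor of the pathway, fell by 1.57 (adjusted p = 0.000833), but antisense exons cover 98.5% of its exon bases. The number that fell was 2 without replicate 2 of the treated memory line and 3 without its replicate 1.

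The windows of JAZ7 and JAZ8 are shown because MYC2 binds the G-box CACGTG, and each holds it close to the gene start. They are the 250 bases before the annotated start in TAIR10.1, both on the plus strand, at chr2:14572780-14573029 for JAZ7 and chr1:10596102-10596351 for JAZ8. Capitals mark the G-box, which begins 34 bases before the start in JAZ7 and 10 bases before it in JAZ8 and reads the same on both strands. Of the 12 JAZ windows 4 held it (33.3%), and of all 22020 windows 1520 did (6.9%).
JAZ7: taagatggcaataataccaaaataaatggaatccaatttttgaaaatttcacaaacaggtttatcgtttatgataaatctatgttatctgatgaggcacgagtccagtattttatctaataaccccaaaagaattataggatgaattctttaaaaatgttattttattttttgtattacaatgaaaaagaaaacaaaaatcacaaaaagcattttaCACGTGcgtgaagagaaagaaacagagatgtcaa
JAZ8: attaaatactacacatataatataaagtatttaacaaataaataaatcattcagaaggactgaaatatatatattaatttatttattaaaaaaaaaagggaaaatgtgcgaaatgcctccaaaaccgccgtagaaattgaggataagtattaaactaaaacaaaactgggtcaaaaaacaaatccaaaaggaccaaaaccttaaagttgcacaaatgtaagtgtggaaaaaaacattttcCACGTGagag

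Glucosinolates are sulfur-rich defence compounds whose synthesis is promoted by jasmonate. Of 17 tested genes of the aliphatic branch, which starts from methionine, 8 fell and none rose, against 2.55% of all genes tested that fell, with a median of −1.03. CYP79F1, the enzyme of the first step of the core pathway, had 46.3, 50.5 and 45.3 CPM in wild type and 14.5 and 15.8 CPM in the treated memory line. The spread within each group was small against the gap, and the fall was 3.12-fold (log2 −1.64, adjusted p = 0.00107). Reads of its near-identical neighbour CYP79F2 may be split between both genes. The untreated memory line had CYP79F1 at 34.2 and 22.7 CPM, between the groups, and did not pass against wild type (adjusted p = 0.0943).

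The other aliphatic genes that fell were the chain-elongation genes MAM1 (−1.17) and IPMI1 (−1.47), the transporter BASS5 (−1.1), the glutathione transferase GSTF11 (−2.17), the sulfotransferases SOT17 (−1.06) and SOT18 (−0.93) and the regulator MYB29 (−1.03). Exons of the opposite strand cover 100% of GSTF11. In number, 3 aliphatic genes fell without replicate 2 of the treated memory line. Of 15 tested genes of the indole branch, which starts from tryptophan, 4 fell, against the same 2.55% of all genes: CYP79B2 (−0.74), UGT74B1 (−0.86), SOT16 (−0.64) and ASA1 (−1.23), an enzyme of tryptophan synthesis. Without wild-type replicate 2 or either treated memory-line replicate, 2 indole genes fell.

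**Figure D4:**
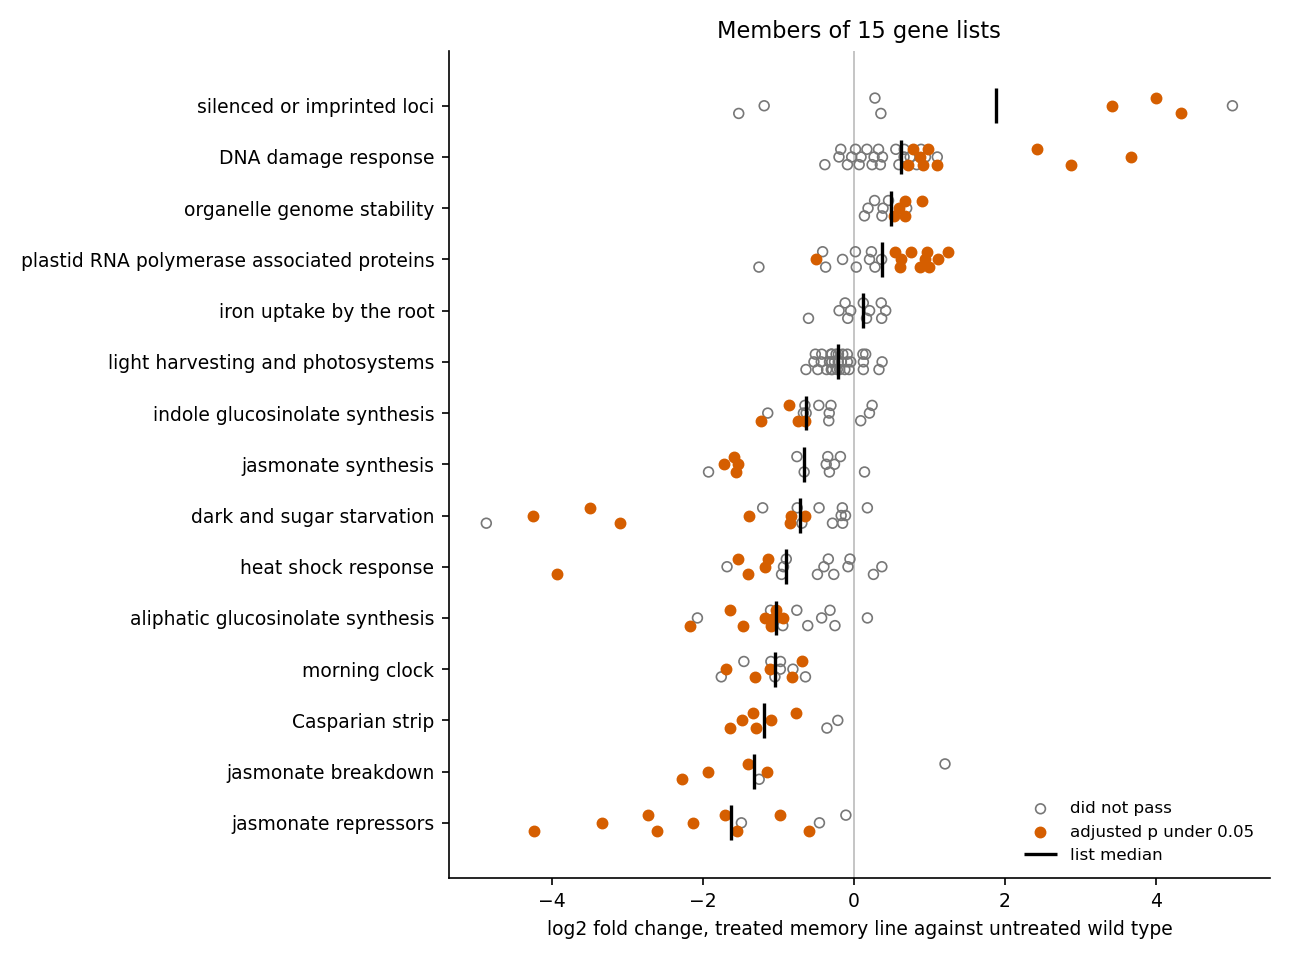
Log2 fold change of each tested member of 15 gene lists in the treated memory line against untreated wild type, with filled points for genes at an adjusted p under 0.05, open points for the others and a black bar at the list median; FWA is placed at its lower bound. Members of the jasmonate and glucosinolate lists lie mostly left of 0, and those of the DNA damage and plastid RNA polymerase lists lie mostly right of it.

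Some genes that differed between the untreated memory line and wild type stood near the wild-type level on the drug. The iron uptake genes of the root had the largest such differences. IRT1, which takes up ferrous iron in the root epidermis, had 90.8, 72.2 and 83.1 CPM in wild type, 5.23 and 5.26 CPM in the untreated memory line and 88.7 and 66.7 CPM in the treated one. The treated memory line overlapped wild type, with a log2 difference of −0.08 (95% interval −1.05 to 0.89, adjusted p = 0.935). Without the drug IRT1 was 15.6-fold lower than in wild type (adjusted p = 0.0226). The drug raised it 14.8-fold within the memory line (adjusted p = 0.0231). The first of these calls was lost without wild-type replicate 1 or 2 or either untreated memory-line replicate (adjusted p up to 0.153). The second was lost without wild-type replicate 3 or any of the 4 memory-line replicates (up to 0.253).

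FRO2 encodes the root's ferric chelate reductase. It had 60.6, 43.6 and 58.1 CPM in wild type, 2.65 and 1.78 CPM in the untreated memory line and 43.0 and 28.6 CPM in the treated one. The treated replicates lay just under the wild-type range, and the difference of −0.60 did not pass (95% interval −1.82 to 0.62, adjusted p = 0.538). FRO2 was called lower in the untreated memory line (log2 −4.58, adjusted p = 0.0358), a call lost in 7 of the 10 fits that left out 1 replicate. Its difference on the drug within the memory line was 3.98 and did not pass (adjusted p = 0.0846). Of the 11 tested iron uptake genes none was called between the treated memory line and wild type, by edgeR, DESeq2 or limma voom, with 1 higher at an unadjusted p under 0.05. In the untreated memory line 2 of the 11 were called lower, and 2 were called higher on the drug within the memory line, where 0.477% of all genes tested were called in each case. Of 9 tested iron status regulators none was called in the treated memory line against wild type, but none was above 0, with a median of −0.96. For 5 of the 9 both treated replicates lay below every wild-type one, beside 19.3% of all genes tested. DESeq2 called 1 of the 9 lower and limma voom none. A further 7 names of that list, FIT and BTSL1 among them, matched no gene by symbol.

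The other root markers did not follow IRT1 and FRO2. Without these 2 genes, the summed level of 12 root markers was 127.9 to 156.4 CPM in wild type, 147.3 and 107.5 CPM in the untreated memory line and 111.3 and 143.4 CPM in the treated one. Each memory-line group overlapped wild type, and none of the 12 was called in the untreated memory line. Among these 12, CASP1, CASP2 and PER64 fell in the treated memory line. The root regulators SHR and SCR had log2 differences of 0.17 and 0.27, and the phosphate transporter PHT1;1 one of 0.10, none called. These are among only 4 of all 14 tested root markers, IRT1 and FRO2 included, that were above 0. The median of the 14 was −0.48. For 8 of them both treated replicates lay below every wild-type one, beside 19.3% of all genes tested.

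Of 13 tested nicotianamine synthases and vacuolar metal transporters, 1 was called higher in the treated memory line than in wild type, where 3.22% of all genes tested were. In the untreated memory line 3 were called lower and on the drug within the memory line 4 higher, beside 0.477% of all genes tested in each case, with medians of −0.37 and 0.32. The zinc transporter MTPA2 differed by −0.07 between the treated memory line and wild type. It was 1.69 lower on the log2 scale in the untreated memory line (adjusted p = 0.0066) and 1.62 higher on the drug within the memory line (adjusted p = 0.00401). HMA3, another member of the list, gave 0.12, −2.29 and 2.41 in the same order (adjusted p = 0.879, 0.0312 and 0.0324). NAS2, a nicotianamine synthase, went past wild type. It had 13.3, 10.6 and 18.3 CPM in wild type, 3.51 and 4.79 CPM in the untreated memory line and 44.5 and 36.8 CPM in the treated one. The 3 groups did not overlap, and the treated memory line was 2.88-fold above wild type (log2 1.53, adjusted p = 0.00214), a level that treated wild type, at 33.8 to 47.7 CPM, also had. The drug raised NAS2 9.87-fold within the memory line (adjusted p = 9.06e-05), and this call held in all 10 fits that left out 1 replicate. Nicotianamine synthase genes are similar in sequence, and reads may be shared between them.

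PP2-A8, a phloem-protein-like gene, also stood at the level of wild type on the drug. It had 24.5, 23.0 and 31.6 CPM in wild type, 8.17 and 4.88 CPM in the untreated memory line and 38.5 and 27.2 CPM in the treated one. The treated replicates overlapped wild type (log2 0.31, 95% interval −0.16 to 0.79, adjusted p = 0.411). The untreated memory line was 3.98-fold lower than wild type (adjusted p = 0.0066) and rose 4.95-fold on the drug (adjusted p = 0.0013), and both calls held in all 10 fits that left out 1 replicate. The carboxypeptidase-like gene scpl31 came part of the way. It had 40.9, 50.7 and 40.9 CPM in wild type, 8.39 and 10.6 CPM in the untreated memory line and 28.9 and 24.1 CPM in the treated one, below wild type and level with treated wild type at 22.4 to 25.1 CPM. It was 4.67-fold lower than wild type without the drug (adjusted p = 5.06e-05), and on the drug 1.67-fold lower (log2 −0.74, adjusted p = 0.0145). The last call was lost without wild-type replicate 2 or replicate 2 of the treated memory line, with an adjusted p of at most 0.145.

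LEA3, a late embryogenesis abundant protein gene, was called higher in the untreated memory line, at 3.94 and 16.5 CPM against 1.41 to 2.43 CPM in wild type. The treated memory line had 1.02 and 1.31 CPM and did not pass (log2 −0.80, adjusted p = 0.432). The high value was in replicate 2, the replicate with the high seed markers, and its part in the result was not tested. Without that replicate LEA3 was not called in the untreated memory line. SDR4 had 22.9 and 28.1 CPM in the untreated memory line, 10.1 to 13.8 CPM in wild type and 8.75 and 13.3 CPM in the treated memory line, which overlapped wild type (log2 −0.10, adjusted p = 0.836). Its untreated call (adjusted p = 0.0385) was lost in 5 of the 10 fits that left out 1 replicate, with an adjusted p of up to 0.202.

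**Figure D5:**
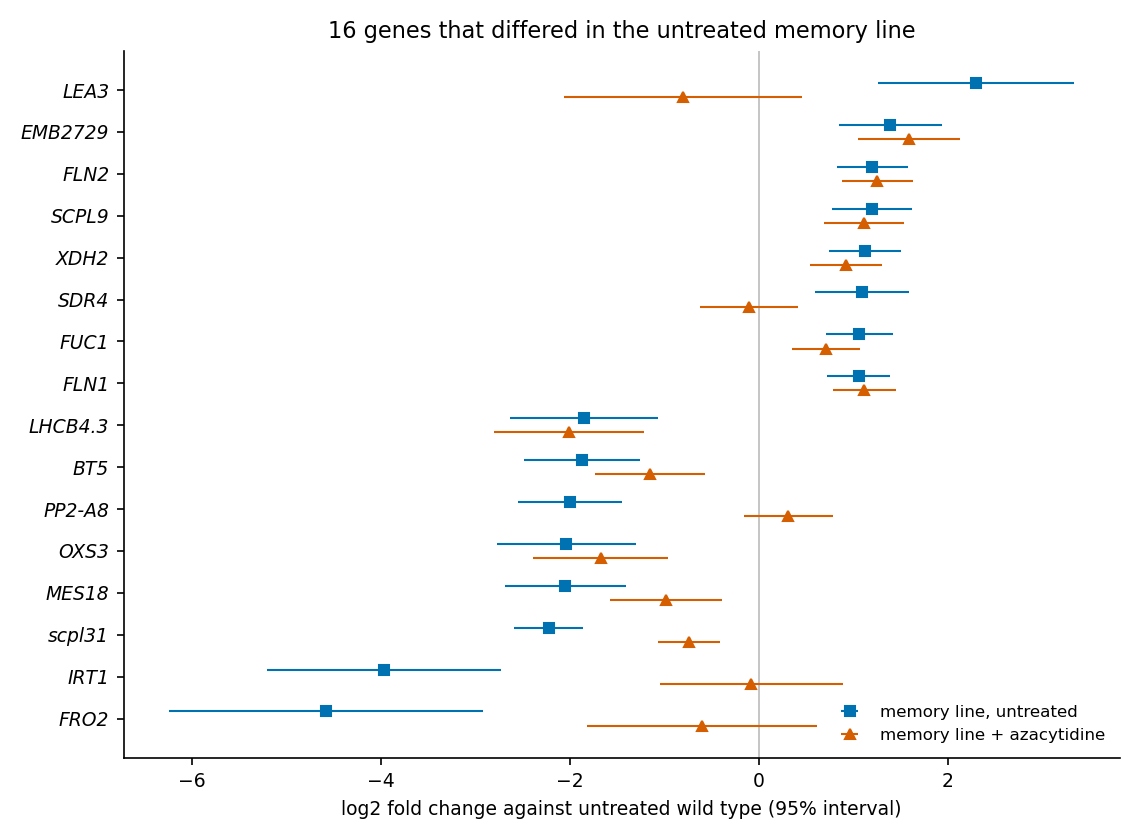
Log2 fold change against untreated wild type, with 95% interval, of the 16 named genes that differed in the untreated memory line, for the memory line without and with azacytidine. On the drug IRT1, PP2-A8 and SDR4 lie at 0 within their intervals, scpl31 lies between, and FLN1, FLN2, SCPL9 and LHCB4.3 keep about the same distance from 0.

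Other genes kept their distance from wild type on the drug, among them genes of the plastid RNA polymerase. This enzyme transcribes photosynthesis genes in the chloroplast and carries a set of nuclear-encoded associated proteins. FLN2, a fructokinase-like protein of that set, had 38.1, 46.4 and 62.7 CPM in wild type, 117 and 109 CPM in the untreated memory line and 113 and 122 CPM in the treated one. The memory line was above every wild-type replicate with and without the drug. On the drug it was 2.39-fold above wild type (log2 1.25, adjusted p = 0.00121), and within the memory line the drug made a difference of 0.05 (95% interval −0.36 to 0.46, adjusted p = 0.977). PTAC3 had 64.9, 78.6 and 79.1 CPM in wild type, 144 and 132 CPM in the untreated memory line and 140 and 151 CPM in the treated one. Its difference from wild type was 0.97 on the drug (adjusted p = 0.00113) and 0.89 without it (adjusted p = 0.00983). FLN1 (1.12 and 1.06) and FSD3, a superoxide dismutase of the plastid nucleoid (0.99 and 0.84), gave like pairs of values. The calls on the drug held for these 4 genes without any 1 of the 5 replicates. Those in the untreated memory line were lost without wild-type replicate 2 for FLN1 and FLN2 (adjusted p = 0.0621 each) and in 4 of 10 fits for FSD3 (up to 0.0923).

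Of the 21 tested members of that list, 10 rose in the treated memory line, against 3.22% of all genes tested. Only 1, the sigma factor gene SIG3 (−0.50), fell, against 2.55% of all genes tested, and the list's median was 0.37. The other 6 that rose were PTAC2, PTAC10, PTAC12, PTAC14, MURE and FSD2, by 0.55 to 0.95. The untreated memory line had 9 higher, where 0.694% of all genes tested were higher, with a median of 0.43. Between 6 and 10 rose when any 1 of the 5 replicates was left out, with 6 without replicate 2 of the treated memory line. Treated wild type lay between the groups for FLN2, at 81.3 to 97.2 CPM, and for PTAC3, at 102 to 113 CPM. Against untreated wild type it had 6 of the 21 called higher and 1 lower, where 3.02% and 3.37% of all genes tested were. The 32 tested genes of light harvesting and the photosystems held no call by edgeR, DESeq2 or limma voom, and none at an unadjusted p under 0.05. Their summed level was 61730 to 72200 CPM in wild type, and 74490 and 41090 CPM in the treated memory line, so the treated replicates lay on either side.

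Some genes whose proteins guard organelle DNA were called higher in the treated memory line. Of 12 tested genes 5 rose and none fell, against 3.22% of all genes tested that rose, with a median of 0.50. They were the single-stranded DNA binding proteins WHY1 (0.69), WHY2 (0.68) and WHY3 (0.90), the DNA polymerase POLIB (0.60) and the recombinase RECA3 (0.53). WHY3 had 32.2, 25.4 and 40.3 CPM in wild type and 65.1 and 57.2 CPM in the treated memory line. Treated wild type had 2 of the 12 called higher against untreated wild type, with a median of 0.37, where 3.02% of all genes tested were. None of the 12 was called on the drug within the memory line or between both treated groups. None of the 5 that rose in the treated memory line was called in the untreated one. The number that rose was 1 without either treated memory-line replicate and 2 without wild-type replicate 1 or 2.

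More genes stayed on the same side of wild type with and without the drug. XDH2, a xanthine dehydrogenase, differed by 0.92 on the drug and 1.12 without it. For the carboxypeptidase-like gene SCPL9 the values were 1.11 and 1.19, and for EMB2729 they were 1.59 and 1.39. On the lower side, the chaperone gene HSP90.1 had 20.3, 22 and 19.3 CPM in wild type, 7.38 and 5.26 CPM in the untreated memory line and 6.46 and 9.11 CPM in the treated one. It was lower by 1.39 on the drug (adjusted p = 0.00504) and by 1.69 without it (adjusted p = 0.0102). The cochaperone gene ROF2 gave −1.53 and −1.49, the stress gene OXS3 −1.67 and −2.04, BT5 −1.15 and −1.87 and the antenna protein gene LHCB4.3 −2.01 and −1.85. Each was called in both comparisons, and each lost its call on the drug without at least 1 of the 5 replicates. The adjusted p then reached 0.0578 for HSP90.1, 0.0643 for SCPL9, 0.0658 for EMB2729, 0.118 for XDH2, 0.0888 for ROF2, 0.113 for OXS3, 0.154 for BT5 and 0.124 for LHCB4.3. That highest value came without replicate 1 of the treated memory line for HSP90.1 and OXS3 and without its replicate 2 for the others. The calls in the untreated memory line were lost in 1 (HSP90.1, XDH2) to 8 (LHCB4.3) of the 10 fits that left out 1 replicate, and BT5 kept its call in all 10.

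Over the 153 genes called higher in the untreated memory line, the median log2 difference from wild type was 0.841 without the drug and 0.83 on it. Over the 105 genes called lower, it was −1.42 without the drug and −0.737 on it, and the median change on the drug within the memory line was 0.646. The untreated values chose these genes and share the wild-type replicates with the treated ones, so the medians are a description.

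Starvation, heat and clock genes held calls that rested on few replicates. Of 18 tested genes of darkness and sugar starvation 7 fell, against 2.55% of all genes tested, with a median of −0.72. Limma voom called 3 of the list lower, and neither ASN1 nor DIN1 (adjusted p = 0.0551 for each). ASN1, an asparagine synthetase induced in the dark, had 73.5, 130 and 62.6 CPM in wild type and 5.35 and 4.01 CPM in the treated memory line (log2 −4.25, adjusted p = 0.0264). DIN1, another dark-induced gene, varied from 56.9 to 322 CPM among the wild-type replicates and had 16.6 and 15.6 CPM in the treated memory line (log2 −3.49, adjusted p = 0.045). Both calls, and all 7 of the list, were lost without either treated memory-line replicate. Without wild-type replicate 1 neither ASN1 nor DIN1 was called (adjusted p = 0.0614 and 0.0983), and 1 gene of the list fell, as against 3 without wild-type replicate 2 and 11 without wild-type replicate 3. Of 17 tested heat shock genes 5 fell, against the same 2.55%: HSFA2 (−3.93), ROF2, HSP90.1, HSP70 (−1.17) and GOLS1. None was called without replicate 1 of the treated memory line, 1 without its replicate 2 and 2 without wild-type replicate 1 or 2. Of 13 tested morning clock genes 5 fell, 3 by limma voom, among them RVE7 (−1.69), RVE1 (−1.31), PRR7 (−1.1) and RVE4 (−0.81), none was called without either treated memory-line replicate, and 1 was without wild-type replicate 2. The core clock genes CCA1, LHY, TOC1 and GI had log2 differences of −1.1, −0.64, −0.35 and −0.44, none called.

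The Casparian strip is the barrier in the root's endodermis, built by CASP membrane proteins with the peroxidase PER64. Of 8 tested genes 6 fell, against 2.55% of all genes tested, with a median of −1.19, among them CASP1, CASP2, PER64 and ESB1. PER64 had 11.0, 10.2 and 10.1 CPM in wild type and 3.06 and 4.37 CPM in the treated memory line (log2 −1.48, adjusted p = 0.00745, and 0.072 without replicate 1 of the treated memory line). CASP1 had 16.9, 16.1 and 17.2 CPM in wild type and 9.52 and 6.27 CPM in the treated memory line (log2 −1.09, adjusted p = 0.0113). The untreated memory line had PER64 at 9.89 and 8.83 CPM, a log2 difference of −0.16 (adjusted p = 0.822), and treated wild type had it at 3.56 to 6.35 CPM. In number, 1 of the list fell without replicate 2 of the treated memory line, 2 without its replicate 1 and 2 without wild-type replicate 2. The summed level of 12 root markers without IRT1 and FRO2, which holds CASP1, CASP2 and PER64, overlapped between both groups, at 111.3 and 143.4 CPM against 127.9 to 156.4 CPM. In whole-plant RNA, fewer cells of a type and less RNA per cell cannot be told apart.

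Other fixed genes did not pass. FLC, the floral repressor, differed by 0.52 (adjusted p = 0.477) and FT, the florigen gene, by −0.23 (adjusted p = 0.836). AOX1A, the alternative oxidase gene and 1 of several marks of mitochondrial stress, differed by −0.42 (adjusted p = 0.205). Of 17 tested genes of mitochondrial and oxidative stress 1 fell and none rose, beside 2.55% and 3.22% of all genes tested. UPOX, chosen for the same list, matched no gene by its symbol, so the list leaves it out. PR1, an output gene of salicylate, was at 12.9, 0 and 0.147 CPM in wild type and at 0.17 and 0 CPM in the treated memory line, so the replicates of wild type alone spanned its range. Of the 17 tested salicylate synthesis genes and 14 salicylate output genes none was called by edgeR. DESeq2 called 2 of the former lower and limma voom none, and at an unadjusted p under 0.05 they held 2 higher and 4 lower, and 0 higher and 1 lower. Among flower markers SEP3 was called higher (log2 1.73, adjusted p = 0.0402; limma voom called no marker of this list), from 1.16, 1.5 and 0.514 CPM to 4.5 and 2.55 CPM, and the summed level of 7 flower and pollen markers was 2.311 to 2.668 CPM in wild type and 5.989 and 4.953 CPM in the treated memory line.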

How the data were processed

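Gene counts were deposited for each library as whole-number counts per gene, with no normalization; per the labels' protocols, libraries were made with an unstranded kit (TruSeq RNA v2) and read on an Illumina HiSeq instrument. Per the submitters' processing notes the build was TAIR10 and DESeq2 was used; for the aligner and the counter, nothing is stated in the labels or headers. The 5 entries that name no gene stayed out of library sizes. Reads in no gene were 48.26% to 49.27% of the reads in genes, in no gene or ambiguous between genes. Reads aligned to several places or not aligned are left out of that share. Technical libraries were summed per replicate, which gave 11412839 to 13544859 counts in genes. Genes were matched to RefSeq (TAIR10.1), 32548 of 33977 identifiers in all, and genes without a symbol are given by locus.

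All 4 groups were fitted together with edgeR 4.0.16 in R 4.3.3: TMM scaling, filterByExpr with a minimum count of 10 (15 in total), a robust quasi-likelihood fit with no block, and Benjamini-Hochberg adjustment over 22031 genes, called at an adjusted p under 0.05. The fit had 6 residual degrees of freedom and a common biological coefficient of variation of 0.166. CPM of a single gene divides by the TMM-scaled counts in genes, and summed marker levels and floors by the plain counts. The genes chosen by rule, called named genes, were the fixed genes and the 12 largest rises and falls of at least 5 CPM without overlap. Up to 4 called members per list and up to 8 genes called in each direction in the untreated memory line joined them. The fixed genes are all given, but the text gives only part of the others. Left out are, among more, the rise of ACC2 and the falls of HMT3, CYP71B22, NAC3 and SIS. A few more called members of lists are named after their values were seen. Members and lists were chosen with earlier results of these data known. Alternatives were RLE size factors, no filter, a minimum count of 50, DESeq2 1.42.0, limma 3.58.1 voom, only the 5 replicates, a replicate block, the first technical library and each replicate left out. Removing genes covered by antisense exons, leaving out replicate 2 of the untreated memory line, summing root markers without IRT1 and FRO2, and leave-one-out fits of the other comparisons were chosen after seeing the data. The 95% intervals come from the fit, and the floor for a gene at 0 covers counting error only. Values of 1 gene of the lists are not reported here.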

Additional observations from a re-analysis of the deposited data

Results flagged for a closer look

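The response of scpl31, a serine carboxypeptidase-like gene, to azacytidine differed between the memory line and wild type by 2.36 on the log2 scale, by the test of that difference in the same edgeR fit (adjusted p = 0.0015). The drug raised it by 1.49 in the memory line (adjusted p = 0.00116), from 8.39 and 10.6 CPM to 28.9 and 24.1 CPM. In wild type it fell by 0.87 (adjusted p = 0.0027), from 40.9, 50.7 and 40.9 CPM to 25.1, 25.0 and 22.4 CPM. The call of the difference held in all 10 fits that left out 1 replicate, with an adjusted p of at most 0.0165. The treated levels of both genotypes were thus close, and the untreated ones far apart. Differences between both responses were called at 4 genes, or 0.0182% of those tested, and the count was 1 without wild-type replicate 1 and 48 without wild-type replicate 3.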

How the results depend on the processing

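Against 1271 calls as reported, DESeq2 gave 2049, of which 1063 were lower, and a fit of only the 5 replicates compared gave 811, of which 412 were higher. RLE size factors, no filter, a minimum count of 50 (537 higher, 558 lower), limma voom, the first technical library, removal of genes covered by antisense exons, and leaving out replicate 2 of the untreated memory line stayed within 1.5 times of the reported totals, from 1038 to 1701. The reported split was 710 higher and 561 lower, and DESeq2's was 986 and 1063. Leaving out 1 of the 5 replicates gave 270 to 2561 calls in all, 191 to 1346 higher and 79 to 1215 lower, so the number of called genes is loosely fixed, and the cause was not tested. Leaving out 1 of the 10 replicates gave 32 to 891 calls for the untreated memory line against wild type, 91 to 283 for the drug within the memory line, 432 to 2500 for the drug within wild type, 1 to 67 between both treated groups and 1 to 48 for the difference between both drug responses. No called named gene reversed its direction under these alternatives, while 4 named genes without a call changed sign, FT (−0.68 to 0.09), PR1 (−8.77 to 0.04), IRT1 (−0.30 to 0.10) and SDR4 (−0.46 to 0.16). Of 93 named called genes, 63 lost their call without replicate 2 of the treated memory line and 44 without its replicate 1; with 1 sample left in that group, it is assumed to vary like the others. With the replicate number as a block, 1748 genes were called, 853 higher and 895 lower, and 6 of the named calls were lost. Deviations of same-numbered replicates correlated at −0.12 to 0.145 and those of other pairs at −0.167 to 0.163. Samples did not all correlate best with their own number. In a group of 2 replicates the deviations mirror each other, so these values cannot decide whether the numbers pair the samples. Low counts limit genes under about 1 CPM, and 23 of the genes called higher were under 1 CPM in both groups.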

Other observations

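Genes with no counts in wild type made up a share of the higher calls. Of the 22031 genes tested, 82 had no counts in any of the 3 untreated wild-type replicates, and 68 of these were called higher in the treated memory line. Such genes passed the filter only through counts in the other groups and could differ from wild type only upward. Their number is thus a description and no test. By the floor of 3 counts over the 3 wild-type replicates, they were at least 5.92-fold to 194-fold higher, with a median bound of 27.4-fold. Their mean level in the treated memory line was 0.462 to 15.1 CPM, with a median of 2.14 CPM. The reference lists 56 of them as protein-coding and 12 as other types. In the untreated memory line 49 of the 68 had no counts in either replicate, and 2 were called there. All 3 treated wild-type replicates had counts for 67 of the 68. Only 2 carry a symbol, the homeobox gene HDG4 and OFP9. OFP9, of the OVATE family of growth regulators, stood at 0 CPM in both untreated groups, at 1.44 and 2.04 CPM in the treated memory line and at 2.43 to 2.71 CPM in treated wild type. Noncoding genes made up 7.32% of the higher calls, 2.32% of the lower calls and 6.04% of the genes tested.

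Between the treated memory line and treated wild type 5 genes were called higher (0.0227%) and 5 lower (0.0227%), named here after their values were seen. AT3G04650 had 31.3 and 41.0 CPM in the treated memory line and 7.98, 6.97 and 6.82 CPM in treated wild type, a log2 difference of 2.31, and 48.2 and 54.6 CPM in the untreated memory line. AT2G21640 (2.54), G6PD4, a glucose-6-phosphate dehydrogenase gene (0.97), AT1G30170 and AT2G42170 were the other higher ones. AT2G21640 had 34.3 and 37.9 CPM in the treated memory line and 7.39, 7.16 and 7.28 CPM in untreated wild type (log2 2.31, adjusted p = 0.0004 by the edgeR test). The untreated memory line had it at 31.4 and 15.2 CPM. CYP707A2, which breaks down abscisic acid (−2.01), the receptor kinase gene RK3 (−1.81), the ion channel gene CNGC3 (−1.25), RLK (−1.20) and AT3G28540 (−2.75) were lower than in treated wild type. Only AT3G04650 was called in all 10 fits that left out 1 replicate. The difference between both drug responses was called, besides scpl31, at AT1G52120 (3.22), AT1G74770 (1.44) and AT3G62040 (1.86).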
